A study of Mus musculus with 10 samples.

Results

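The 10 genes described here are Lor, Sbsn, Krtdap, Dmkn, Lgals7, Dsp, Pkp1, Perp, Trp63 and Sfn. They are grouped under the cornified envelope and the desmosomes of stratified epithelia, though not all encode parts of either. Trp63 encodes a transcription factor, Sfn an adapter protein and Lgals7 a lectin. The 10 genes were chosen with earlier results of these data known, and were taken by name, current or older, from the array's gene annotation. All 10 had a probe set, 19 probe sets in all, among 45037 probe sets and 18193 named genes. They were compared between cochleae of mice homozygous for the D257A form of Polg (labelled PolgD257A/D257A) and cochleae of wild-type mice (labelled Polg+/+), with 5 arrays for each genotype. All mice were male, aged 9 months and kept pathogen-free in the same facility. Polg codes for the polymerase that copies mitochondrial DNA, and the D257A form lacks proofreading activity, so the comparison asks which cochlear transcripts differ once mitochondrial DNA mutations have accumulated. Neither the genetic background, the dissection nor the number of animals behind an array is given in the labels, and the submitters state in the design that replicates were not done. The p-values therefore measure the spread between these samples, which may be technical.

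Stratified squamous epithelia, such as skin, the lining of the ear canal and the outer face of the eardrum, renew themselves from a basal layer. The transcription factor p63, encoded by Trp63, keeps that basal layer, and cells leaving it switch on envelope proteins that transglutaminases cross-link under the plasma membrane into the cornified envelope. Desmosomes join the cells and tie their keratin filaments together, through cadherins of the desmoglein and desmocollin families, plakophilins, plakoglobin and desmoplakin. Desmoplakin is also used by simple epithelia and by heart muscle, while plakophilin 1 and the envelope proteins are mostly confined to stratified epithelia.

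The 2% trimmed mean signal was 1494 to 1496 on every array, 513 tested probe sets (2.28%) were called in either direction, and log2 signals of pairs of arrays correlated with r from 0.854 to 0.951. D257A replicate 2 and WT replicate 3 correlated least with their own group (mean r 0.89 and 0.914). Of 20 markers chosen for the cochlea, 17 had a probe set and 14 of these were among the 22518 brightest probe sets, which were the ones tested. The fibrocyte gene Coch averaged 68700 ± 8933 in D257A cochleae and 74290 ± 6934 in WT cochleae (SD, n = 5 each). Slc26a5 and Strc, of outer hair cells, and Tecta, of the tectorial membrane, were dimmer than the tested probe sets. The Polg probe set had a log2 fold change of -0.02 (limma adjusted p = 0.966), and since the mutation changes a single amino acid, its level does not check the genotype.

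The envelope gene Lor and the keratinocyte genes Sbsn, Dmkn, Krtdap and Lgals7 were each lower in D257A cochleae. Their mean signals were between 7.33% and 15.9% of the WT means. For Krtdap and Lgals7 the D257A means (184.5 and 163.7) lay under 577.4, the lower edge of the tested probe sets. They were not set apart from background, so these 2 percentages are uncertain. The desmosomal gene Pkp1 was at 33.5% of its WT mean, and Dsp at 48.2%. Values for a gene are those of the probe set with its highest mean log2 signal. Of the 6 genes whose brightest probe set was tested (Lor, Sbsn, Dmkn, Pkp1, Dsp and Perp), 4 fell in D257A cochleae at a limma adjusted p below 0.05, and none rose. Across all 11871 tested genes, 1.66% were called lower and 0.657% higher. The 5 D257A values lay below all 5 WT values for 5 of these 6 genes, against 3.52% of tested genes. When dim probe sets were kept in the fit (no filter), so that all 10 genes took part, 6 were called lower, against 1.05% of 18193 genes. All 10 log2 fold changes were negative, and in 8 of the 10 genes the groups did not overlap (2.8% of all named genes). In whole-tissue RNA, fewer cells of a type and less RNA per cell cannot be told apart.

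**Figure D1:**
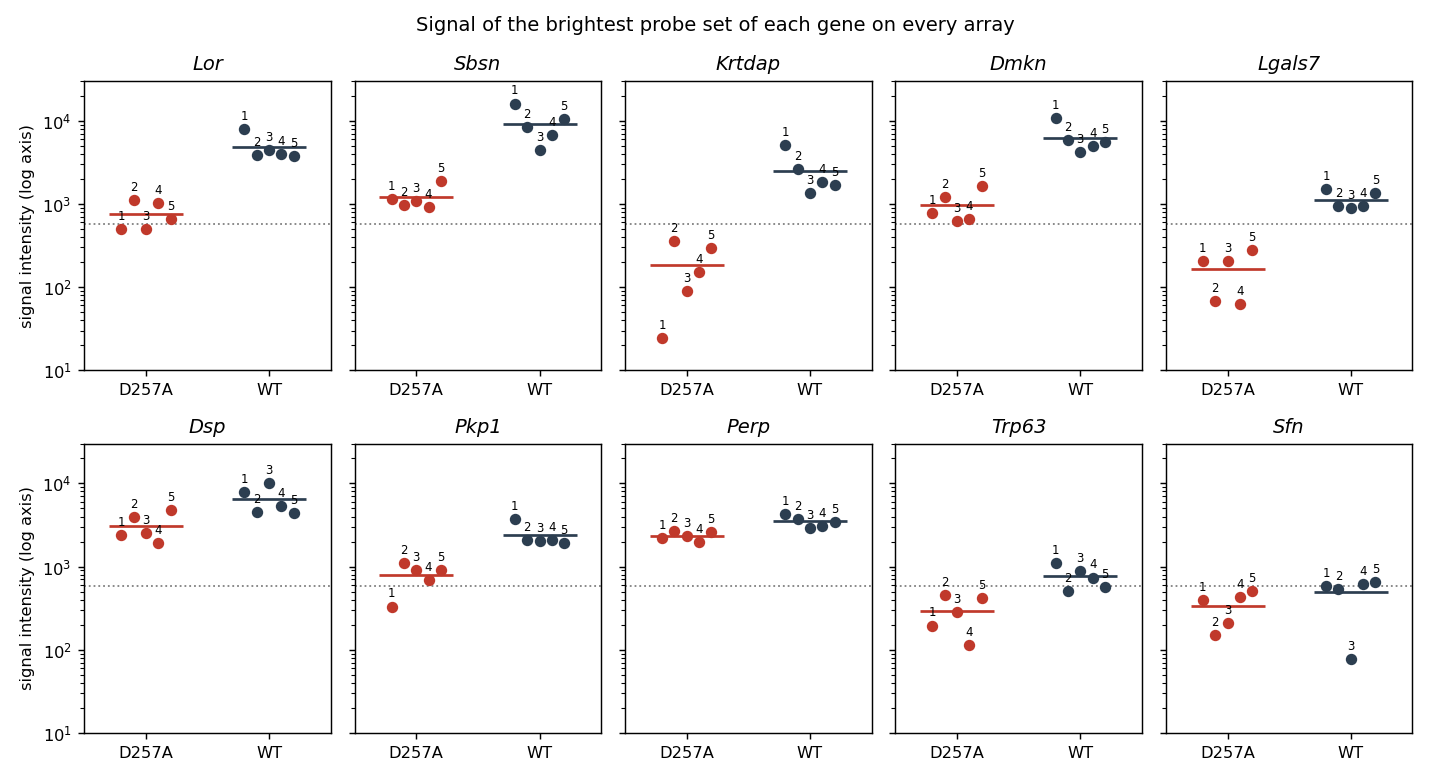
Signal intensity (log axis) of the brightest probe set of each of the 10 genes on every array, D257A left and WT right; numbers are replicate numbers, bars are group means (n = 5 arrays each), and the dotted line is the lower edge of the tested probe sets at 577.4. The D257A points lie below all WT points for every gene but Dsp and Sfn, and the gap is widest for Krtdap.

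Lor encodes loricrin, the main protein of the cornified envelope of the epidermis. Its brightest probe set measured 492.1, 1116.8, 499.9, 1037.6 and 657.2 in D257A replicates 1 to 5, against 7855.2, 3878.9, 4404.8, 4012.8 and 3723.0 in WT replicates 1 to 5. Every D257A array was below every WT array, and WT replicate 1 stood above the other WT arrays. The log2 fold change was -2.65 (SE 0.28, limma adjusted p = 0.000896), where log2 fold changes are differences of mean log2(signal + 16), D257A minus WT. It was -2.45 without WT replicate 1 (adjusted p = 0.00102), and the call was kept with each array left out in turn. A further probe set of Lor measured 13.2 to 303.9 in D257A cochleae and 936.8 to 8608.2 in WT cochleae. It was not in the tested set, because its mean over all arrays was too low. The fit with no filter gave it a log2 fold change of -5.59 (adjusted p = 0.00241). The third was dim in both groups, with 284.2 ± 78.77 in D257A cochleae and 354 ± 53.7 in WT cochleae (SD, n = 5 each) and an adjusted p of 0.603 with no filter.

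Sbsn, Dmkn and Krtdap encode suprabasin, dermokine and keratinocyte differentiation-associated protein, secreted products of suprabasal keratinocytes. The genes are direct neighbours on chromosome 7 in the RefSeq annotation of GRCm38.p6, with 0 other protein-coding genes between them. The brightest probe set of Sbsn measured 1150.3, 972.6, 1095.7, 921.8 and 1889.7 in D257A replicates 1 to 5, against 16097.6, 8327.7, 4481.4, 6717.6 and 10511.9 in WT replicates 1 to 5. The D257A arrays lay close together apart from replicate 5, and the WT arrays spread widely. Sbsn fell with a log2 fold change of -2.84 (SE 0.31, adjusted p = 0.00107), and its second tested probe set fell by nearly as much (-2.65, adjusted p = 0.000504). Its dim probe set, not tested, measured 32.1 to 283 in D257A cochleae and 167.5 to 2416.3 in WT cochleae, where only WT replicate 3 lay within the D257A range.

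Dmkn measured 782.5, 1199.4, 629, 654 and 1629.9 in D257A replicates 1 to 5, against 10738.2, 5920.8, 4187.4, 4913.9 and 5557.0 in WT replicates 1 to 5. The highest D257A value was well short of the lowest WT value. The log2 fold change of Dmkn was -2.68 (SE 0.30, adjusted p = 0.00136). Krtdap measured 24.1, 361.8, 88.4, 149.9 and 298.3 in D257A replicates 1 to 5, against 5110.9, 2634.5, 1344.1, 1832.4 and 1663.5 in WT replicates 1 to 5. Its D257A signals were all below 577.4, the lower edge of the tested probe sets, and no detection call was used to set them apart from background. Krtdap was outside the tested set, and the fit with no filter gave a log2 fold change of -3.88 (SE 0.56, adjusted p = 0.00542), so the size of this difference is uncertain. The calls of Sbsn and Dmkn, and the adjusted p of Krtdap in that fit, stayed below 0.05 with each array left out in turn.

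The sequences before the transcription starts of these neighbours, of Lor and of Lgals7, which encodes galectin-7, are shown because these 5 genes had the lowest D257A means relative to WT. Each run is the 250 bases before the start, 5′ to 3′ on the gene's strand (GRCm38.p6), and capitals mark matches to the AP-1 motif TGANTCA and to the TATA box TATAAA. Lor is at chr3:92083143-92083392 on the minus strand. Sbsn is at chr7:30751221-30751470, Dmkn at chr7:30763506-30763755, Krtdap at chr7:30787655-30787904 and Lgals7 at chr7:28864136-28864385, each on the plus strand.
Lor: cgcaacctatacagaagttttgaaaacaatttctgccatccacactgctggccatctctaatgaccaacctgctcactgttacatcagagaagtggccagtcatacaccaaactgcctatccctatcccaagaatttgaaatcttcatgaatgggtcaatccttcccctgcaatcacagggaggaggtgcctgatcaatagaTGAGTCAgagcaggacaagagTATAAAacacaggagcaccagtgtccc
Sbsn: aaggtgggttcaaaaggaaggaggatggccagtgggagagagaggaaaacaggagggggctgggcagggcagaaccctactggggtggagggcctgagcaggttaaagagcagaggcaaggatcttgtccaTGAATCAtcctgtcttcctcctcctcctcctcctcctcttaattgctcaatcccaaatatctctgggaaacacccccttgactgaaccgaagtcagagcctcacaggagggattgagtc
Dmkn: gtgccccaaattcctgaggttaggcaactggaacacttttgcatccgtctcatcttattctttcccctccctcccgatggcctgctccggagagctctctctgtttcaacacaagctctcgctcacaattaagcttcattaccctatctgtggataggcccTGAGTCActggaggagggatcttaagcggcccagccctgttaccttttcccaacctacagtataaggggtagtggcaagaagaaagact
Krtdap: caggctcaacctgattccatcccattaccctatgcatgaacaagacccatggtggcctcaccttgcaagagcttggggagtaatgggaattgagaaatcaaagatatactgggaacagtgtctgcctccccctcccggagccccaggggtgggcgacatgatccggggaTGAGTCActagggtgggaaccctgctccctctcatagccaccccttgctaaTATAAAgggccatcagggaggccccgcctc
Lgals7: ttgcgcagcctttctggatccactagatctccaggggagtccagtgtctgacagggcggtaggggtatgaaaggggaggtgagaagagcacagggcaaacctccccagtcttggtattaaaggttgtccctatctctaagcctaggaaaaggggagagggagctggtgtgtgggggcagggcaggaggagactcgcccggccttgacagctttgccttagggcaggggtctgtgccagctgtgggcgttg
The AP-1 motif began at position -48 in Lor, -119 in Sbsn, -89 in Dmkn and -81 in Krtdap, where -1 is the base before the start. All 3 annotated starts of Dmkn held it, but the windows of starts 1 and 2 (from 30763506 and 30763508) overlap and share the same match. The TATA box began at -27 in Lor and -30 in Krtdap. Lgals7 held no match to any motif searched, and neither did Dsp. The table held promoters for 7 of the 10 genes, and 4 of these genes had the AP-1 motif, which 6.75% of all 32851 promoters held in the same window. The TATA box was found in 2 of the 7, against 12.4% of all promoters. Also searched were the Grainyhead-like motif AACCNGTT, the Krüppel-like motif CCNCACCC and the half-site of the p53 family. The Grainyhead-like motif was found in 1 of the 7 genes, Sfn (1.79% of all promoters), and the Krüppel-like motif and the half-site in 0 of the 7 (14.9% and 1.63%). Each motif was searched on both strands, none of the printed matches overlap, and the 5 motifs were chosen after the values had been seen. A match describes the letters only.

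No called gene was found among the protein-coding genes on either side of Sbsn, Dmkn and Krtdap. Of the 10 genes before Sbsn and the 10 after Krtdap, 12 were tested and 0 were called in either direction. Their log2 fold changes ran from -0.39 for Lsr, a receptor of tricellular junctions, to 0.78 for Hamp, which encodes hepcidin, with a median of 0.18. Gapdhs, next to Sbsn, averaged 685.8 in D257A cochleae and 570.8 in WT cochleae, and Ffar2, next to Krtdap, averaged 777.6 and 683.3 (n = 5 each).

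**Figure D2:**
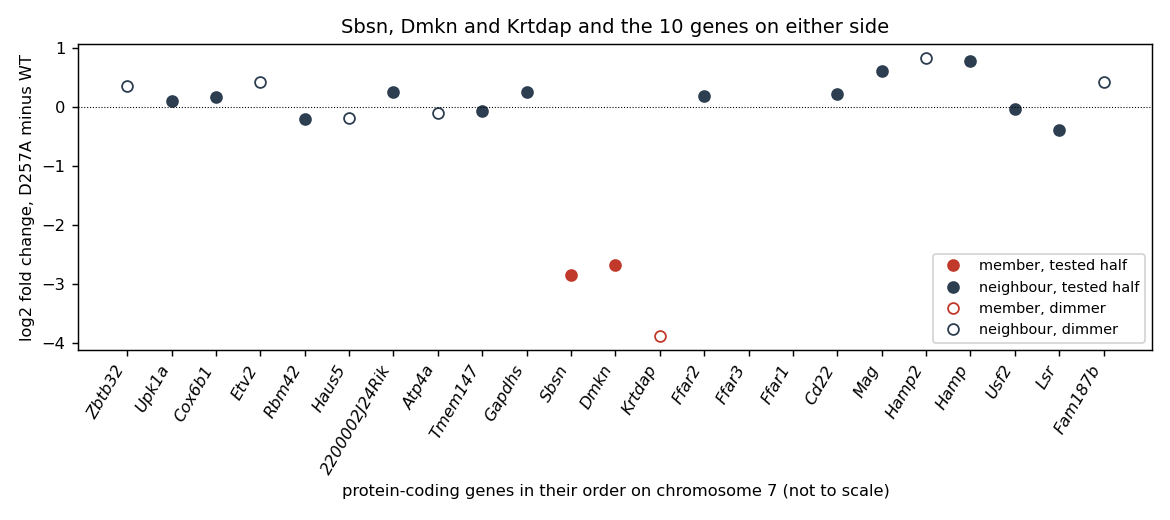
Log2 fold change, D257A minus WT, of Sbsn, Dmkn and Krtdap (red) and of the 10 protein-coding genes on either side (dark), in their order on chromosome 7; open symbols are probe sets dimmer than the tested set, and genes with no symbol had no probe set. The 3 red points lie at -2.84, -2.68 and -3.88, while the tested neighbours lie between -0.39 and 0.78.

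Galectin-7, the product of Lgals7, is a lectin of stratified epithelia. Lgals7 measured 203.3, 68.1, 203.1, 62.4 and 281.8 in D257A replicates 1 to 5, against 1499.9, 937.9, 898, 937.6 and 1344.0 in WT replicates 1 to 5. The WT arrays lay within a narrow range, and all D257A arrays were far below it and under the lower edge of the tested probe sets. The fit with no filter gave a log2 fold change of -2.83 (SE 0.39, adjusted p = 0.00503), with an adjusted p of at most 0.0208 when 1 array was left out.

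Among the desmosomal genes, Pkp1, which encodes plakophilin 1, a plaque protein of stratified epithelia, measured 331, 1114.5, 916.4, 697.2 and 921.3 in D257A replicates 1 to 5, against 3753.2, 2070.5, 2051.9, 2093.9 and 1926.2 in WT replicates 1 to 5. The groups did not overlap, and WT replicate 1 stood above the other WT arrays. Pkp1 fell with a log2 fold change of -1.62 (SE 0.31, adjusted p = 0.0188). The call was lost without WT replicate 2 (adjusted p = 0.0502) and kept with each other array left out.

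Dsp encodes desmoplakin, which links the desmosomal plaque to keratin filaments. Its brightest probe set measured 2417.2, 3978, 2525.9, 1906.1 and 4739.1 in D257A replicates 1 to 5, against 7855.6, 4589.2, 10052.7, 5319.1 and 4456.3 in WT replicates 1 to 5. Here the groups overlapped, since D257A replicate 5 was above WT replicates 2 and 5, and the log2 fold change of -1.05 (SE 0.29) was not called (adjusted p = 0.0834). A second tested probe set of Dsp fell without overlap, with 1725.8 to 3058.4 in D257A cochleae and 3651.7 to 5823.6 in WT cochleae (log2 fold change -0.98, SE 0.20, adjusted p = 0.0251). The third was dim and averaged 410 ± 123.5 in D257A cochleae and 386.6 ± 131.8 in WT cochleae (SD, n = 5 each).

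The other desmosomal genes were not called. Of 8 listed for stratified epithelia, 5 had a probe set and only Pkp3 was tested. Of 5 also used by simple epithelia and heart, Jup, Dsg2, Pkp2 and Pkp4 were tested. The 4 dimmer genes of stratified epithelia all had negative log2 fold changes, without a call in the fit with no filter. These were -1.68 for Dsc3, -0.84 for Dsg1a, -0.697 for Dsc1 and -0.51 for Dsg1b. Dsc2, the dimmer gene of the other list, was positive without a call (0.9999, adjusted p = 0.28 with no filter). Pkp3, encoding plakophilin 3, averaged 1215 in D257A cochleae and 1314 in WT cochleae (log2 fold change -0.10, adjusted p = 0.843). Jup, encoding plakoglobin, averaged 2863 ± 866.4 in D257A cochleae and 4014 ± 626.3 in WT cochleae (SD, n = 5 each), a difference of -0.52 on the log2 scale that was not called (adjusted p = 0.225). For Dsg2 the log2 fold change was -0.12 (adjusted p = 0.832), for Pkp2 0.30 (0.614) and for Pkp4 0.25 (0.57), and the sign of Dsg2 turned when D257A replicate 4 or WT replicate 4 was left out (0.02 and 0.01). The other tested probe set of Pkp4 had the opposite sign.

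The remaining genes are regulators and targets of the p53 family. Perp encodes a membrane protein of desmosomes that p53 and p63 both activate. It measured 2206.8, 2685.8, 2300.4, 1953.9 and 2603.6 in D257A replicates 1 to 5, against 4321.1, 3750.7, 2892.1, 3081.2 and 3405.6 in WT replicates 1 to 5. The groups did not overlap, but the log2 fold change of -0.56 (SE 0.16) was not called (adjusted p = 0.0968). Trp63, at its brightest probe set, measured 195.6, 450.4, 285.6, 114.8 and 420.6 in D257A replicates 1 to 5, against 1108.6, 513.7, 873.7, 738.8 and 571.7 in WT replicates 1 to 5. All D257A values were lower than all WT values, but the probe set was too dim to be tested and the fit with no filter made no call (log2 fold change -1.42, SE 0.37, adjusted p = 0.0818). The other 3 probe sets of Trp63 averaged between 77 and 171.5 in D257A cochleae and between 77.88 and 221.4 in WT cochleae, with overlapping groups. Sfn encodes 14-3-3 sigma, an adapter protein of keratinocytes and a p53 target. It averaged 339.7 ± 151.6 in D257A cochleae and 495.8 ± 238.3 in WT cochleae (SD, n = 5 each), with values of 151.3 to 507.1 and 77.1 to 656.5. WT replicate 3 held the lowest Sfn value of all 10 arrays, the groups overlapped, and no call was made (log2 fold change -0.37, SE 0.54, adjusted p = 0.786 with no filter).

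**Figure D3:**
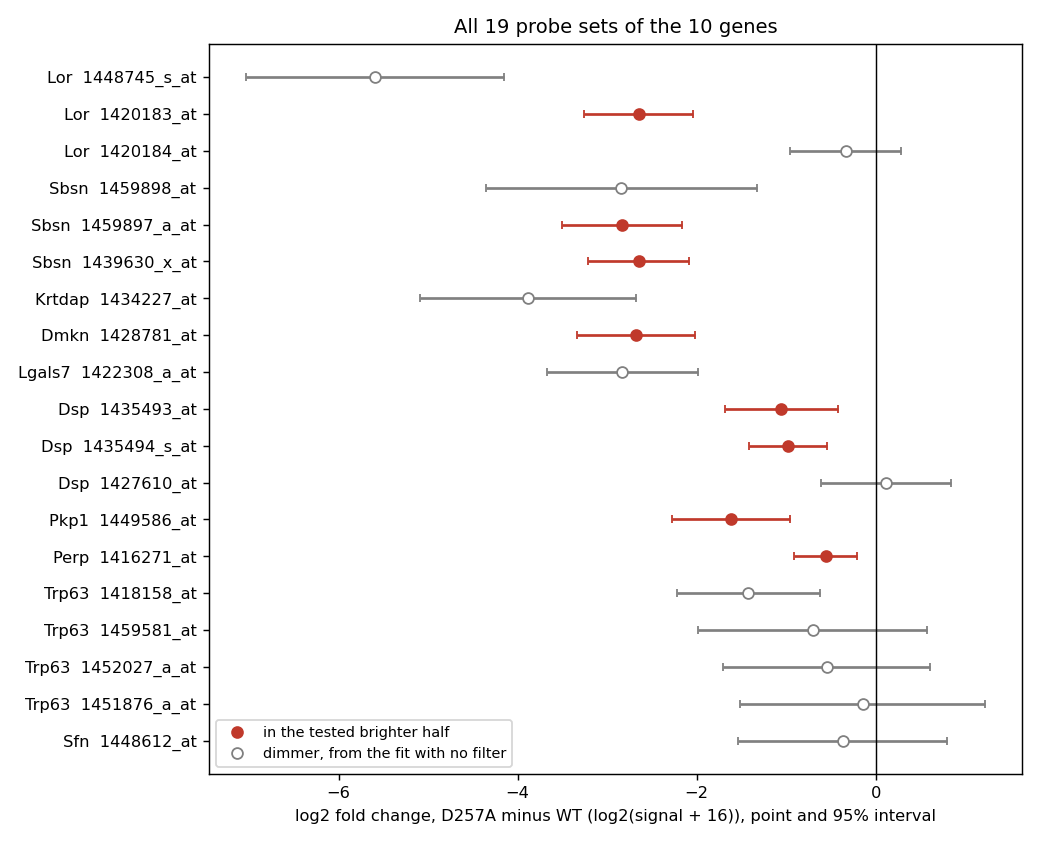
Log2 fold change, D257A minus WT, of all 19 probe sets of the 10 genes, with 95% intervals from limma; filled symbols were tested, and open symbols were dimmer and come from the fit with no filter. Values run from -5.59 for a Lor probe set to 0.11 for the dim Dsp probe set, the only one above 0.

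Over all 19 probe sets, 8 were tested and 6 of these fell, against 1.24% of tested probe sets called lower. In 11 of the 19 the groups did not overlap, with D257A lower, against 1.72% of all probe sets. Of the 11 dimmer ones, 3 were called lower in the fit with no filter, against 0.644% of all probe sets. That share includes the brighter probe sets, and the share among dimmer ones alone is not given. At an unadjusted limma p below 0.05, the p threshold the study's design names, all 6 tested genes were lower, against 10.2% of tested genes. Their median log2 fold change was -2.13, against -0.02 over all tested genes. None of the 6 had a D257A mean below the edge of the tested set.

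Whether the genes differed among themselves in the size of their change was tested for 3 pairs, as the log2 difference between both genes on each array, with a two-sided exact permutation test whose smallest possible p is 0.00794. The difference of Lor minus Trp63 was 1.39 ± 0.95 in D257A cochleae and 2.62 ± 0.25 in WT cochleae (SD, n = 5 each; -1.23, exact permutation p = 0.0476, adjusted over the 3 pairs 0.143). All 5 D257A signals of Trp63, and 2 of the WT ones, were under 577.4 and not set apart from background, so the size of this difference is uncertain. It also turns on D257A replicate 4, where Trp63 was lowest (114.8): without that array it was -1.63 (exact permutation, adjusted p = 0.0238). Pkp1 minus Dsp changed by -0.56 (exact permutation p = 0.143, adjusted 0.214), and Sfn minus Perp by 0.19 (exact permutation p = 0.754). With all arrays kept, none of the 3 pairs passed, Lor minus Trp63 included, so no difference in the size of change is shown. Spreads were wide in Pkp1 minus Dsp and Sfn minus Perp, so equal changes are not shown either.

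Within a genotype, arrays high for 1 of the 10 genes were mostly high for the others. With group means removed, log2 signals correlated positively in 38 of 45 pairs of genes, with a median r of 0.366 over the 10 arrays. The highest was 0.882, for Pkp1 with Krtdap, followed by 0.875 for Perp with Dmkn and 0.867 for Trp63 with Dsp. Every negative pair involved Sfn or Lgals7, the lowest being Sfn with Dsp (-0.517). WT replicate 1 had the highest WT value in 8 of the 10 genes, and WT replicate 3 the lowest in 6. Among D257A arrays, replicates 2 and 5 had the highest value in 5 genes each, and replicate 4 the lowest in 5. These correlations are descriptions, since the points share arrays and scaling.

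Further genes of the cornified envelope and its surroundings were listed from textbook knowledge, with earlier results of these data known. Of the 58 genes listed, 49 had a probe set and 16 were tested. Of the 16, 3 fell and 0 rose, and the others were negative without a call. In 3 of the 16, Lce1b and Scel among them, the D257A mean lay below 577.4, so they were in the tested set only through their WT signal. Of the 33 dimmer genes, 21 had negative and 12 positive log2 fold changes, with Lce1g at 0.45 and Lce3c at 0.50 (adjusted p = 0.538 and 0.434 with no filter). Lce1b, a late cornified envelope protein, measured 348.8 to 699.7 in D257A cochleae and 1219 to 2688.4 in WT cochleae (log2 fold change -1.60, adjusted p = 0.0103). Scel, encoding sciellin, an envelope precursor, measured 220.7 to 499.8 and 816.8 to 1538.8 (-1.44, adjusted p = 0.0145). Lce1a1 fell by 1.21 on the log2 scale (adjusted p = 0.0334). The groups did not overlap in any of these. Without WT replicate 2 the count of called genes was 1, since Scel (adjusted p = 0.0511) and Lce1a1 were lost, and Lce1a1 was lost in 7 of the 10 fits with a single array removed. Not called were Ly6d at -1.32 (adjusted p = 0.0607), Lce1h at -1.53 (0.065), Asprv1 at -1.21 (0.0817) and Cst6 at -0.84 (0.179).

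Keratins of squamous epithelium, the filaments to which desmosomes attach, were lower as well: all 6 tested of 14 listed fell. Of these, 3 (Krt77, Krt1 and Krt14) had D257A means below 577.4 and were in the tested set only through their WT signal, so the count of 6 is not read as support. Of the 8 dimmer ones, 5 had negative and 3 positive log2 fold changes. Krt5, of the basal layer, measured 627.6 to 1145.2 in D257A cochleae and 3168.5 to 8481.9 in WT cochleae (-2.24, adjusted p = 0.00207). Its basal partner Krt14 measured 56.1 to 731.1 and 2083.2 to 8896.3 (-3.83, adjusted p = 0.0103). The suprabasal keratin Krt1 fell by 2.70 on the log2 scale (adjusted p = 0.00318) and its partner Krt10 by 1.43 (adjusted p = 0.0174). Krt77 fell by 3.06 (adjusted p = 0.00205) and Krt6a by 1.29 (adjusted p = 0.0499). The call of Krt6a was lost in 8 of the 10 fits with a single array removed (adjusted p up to 0.128), and that of Krt10 without WT replicate 2 and without WT replicate 5 (up to 0.0525).

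Among tested regulators, junction and anchoring genes and p53 targets, no gene was called. Among transcription factors of stratified epithelia other than Trp63, 7 were tested, 6 were negative and the median was -0.21. Klf5 was at -0.54 (adjusted p = 0.19) and Klf4 at -0.32 (adjusted p = 0.317), and both signs turned when a gene's probe sets were averaged (0.20 and 0.06), while array weights called Klf5 lower (-0.71, adjusted p = 0.0347). Elf3 and Tfap2a had -0.28 and -0.21. Among 14 tested genes of tight and adherens junctions 9 were negative and 5 positive, with a median of -0.12. Ctnna1 was the highest at 0.29, and the lowest were Epcam, an adhesion protein of simple and basal epithelial cells, at -0.48 (adjusted p = 0.282), Cgn at -0.43, Cldn3 at -0.41 and Cldn8 at -0.40. A further tested probe set of Ctnna1 had the opposite sign. Of 5 tested genes anchoring basal keratinocytes to the basement membrane, 3 were negative and the median was -0.01. A dimmer gene of that list, Col17a1, which encodes a hemidesmosomal collagen, measured 23.6 to 168.5 in D257A cochleae and 594.8 to 1650.3 in WT cochleae (log2 fold change -3.61, adjusted p = 0.00243 with no filter); it was singled out after its values were seen. Of 15 tested p53 targets other than Perp and Sfn, 8 were negative, with a median of -0.04, Plk2 at -0.54 and Sesn2 at 0.63 (adjusted p = 0.157 and 0.263), Aen at 0.25 and Ei24 at -0.23. Another tested probe set of Aen had the opposite sign. All 4 tested keratins of simple epithelium were negative without a call: Krt19, Krt18, Krt8 and Krt7 had log2 fold changes of -0.81, -0.67, -0.54 and -0.36 (adjusted p between 0.168 and 0.59). Array weights also called Epcam, Plk2 and Krt18 lower (adjusted p = 0.0458, 0.0487 and 0.0485).

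**Figure D4:**
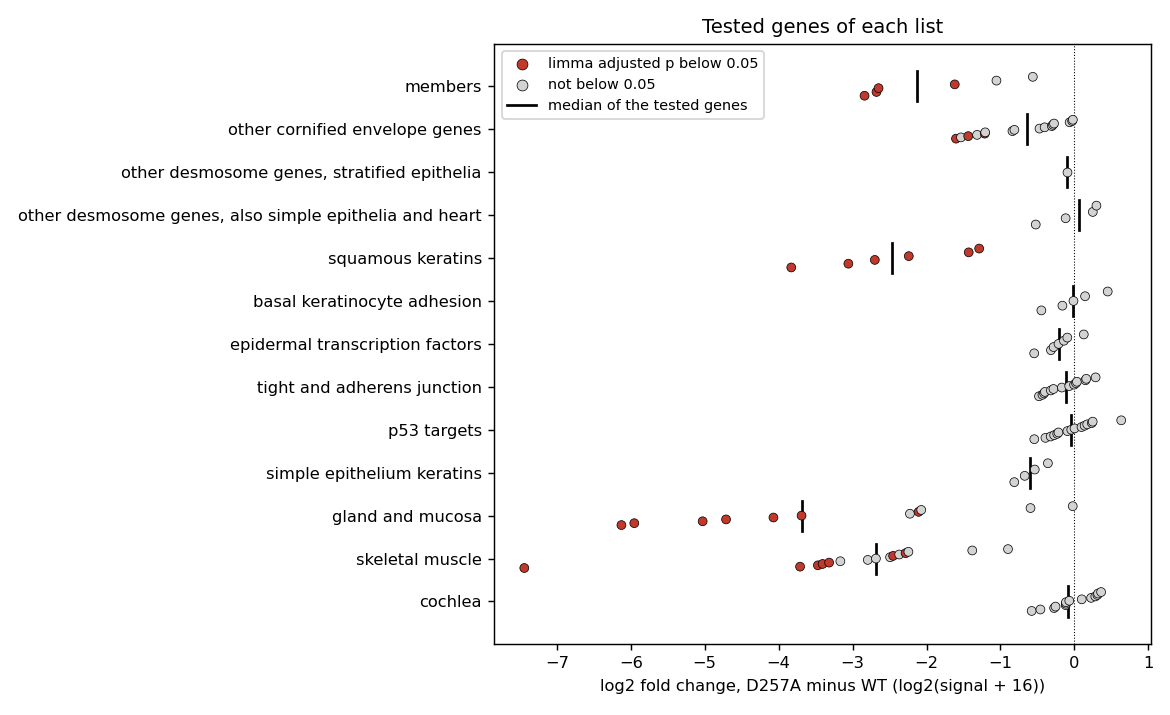
Log2 fold change, D257A minus WT, of the tested genes of each list; each point is a gene at its brightest probe set, red where the limma adjusted p was below 0.05, and the black bar is the median of the tested genes. Red points occur in the rows of the 10 genes (labelled members), the other cornified envelope genes, squamous keratins, gland and mucosa, and skeletal muscle.

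Markers of other tissues moved in the same comparison. The summed signal of the 10 genes was 7930 to 13950 in D257A cochleae and 30270 to 58930 in WT cochleae, and that of the 14 squamous keratins 4435 to 7893 and 15950 to 43480. WT replicate 1 had the highest sum for both. Of 15 markers of glands and mucosa, 11 were tested and 7 fell, with summed signals of 73870 to 115400 in D257A cochleae and 179300 to 514300 in WT cochleae. The called ones were Dmbt1, Lipf, Bpifb1, Muc5b, Tff2, Gp2 and Ltf, of which Ltf was lost in 6 of the 10 fits with a single array removed. Muc5b, Tff2 and Gp2 had D257A means below 577.4 and were in the tested set only through their WT signal, as was Myh2 among the muscle markers. Within the WT group their sum ran differently from that of the 10 genes, being lowest in WT replicate 1 (179300). Of 15 markers of fast skeletal muscle, 15 were tested and 7 fell (Myh2, Casq1, Actn2, Tnni2, Myl1, Tnnc2 and Tnnt3), with sums of 25220 to 283500 in D257A cochleae and 202200 to 557900 in WT cochleae; Tnnc2 was lost in 6 and Tnnt3 in 7 of those fits. The muscle sum of D257A replicate 5 (283500) was above that of WT replicate 3 (202200), while the sum of the 10 genes was 13950 in D257A replicate 5 and 31260 in WT replicate 3. No marker of these lists was listed at 0 on any array. The 17 cochlear markers summed to 168100 to 243100 in D257A cochleae and 180200 to 254100 in WT cochleae, with 0 of 14 tested genes called. The part of gland, muscle and skin tissue in these differences was not tested.

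**Figure D5:**
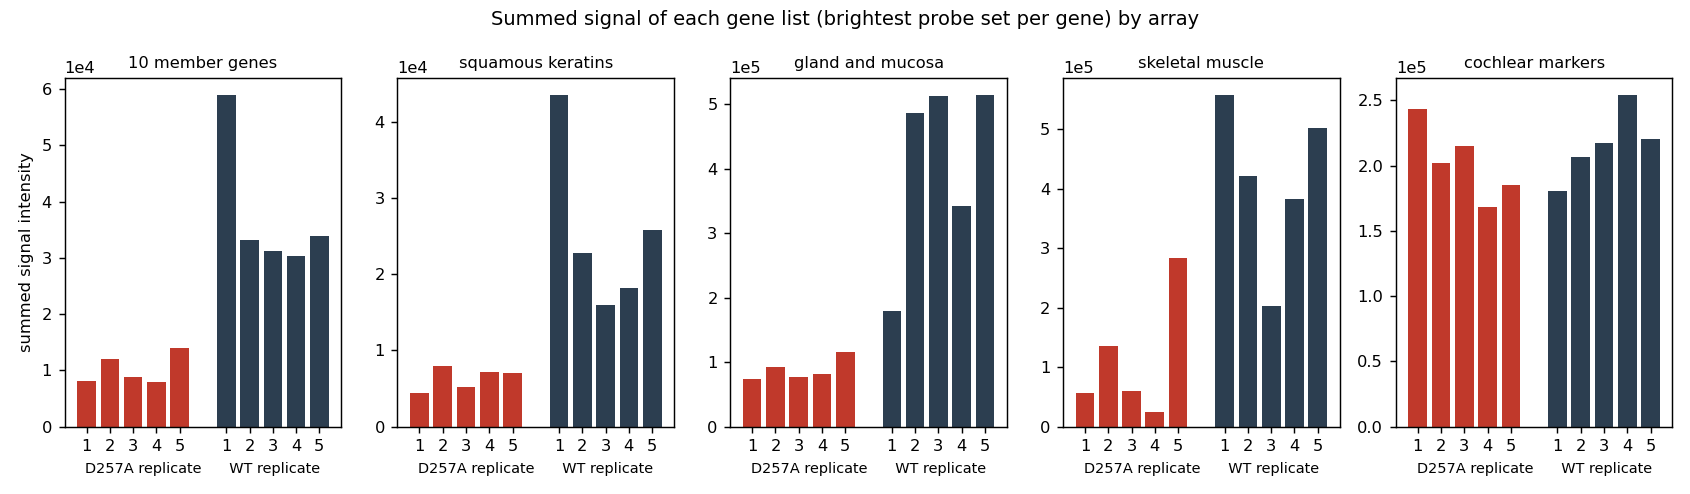
Summed signal intensity, brightest probe set per gene, of the 10 genes, the squamous keratins, the gland and mucosa markers, the skeletal muscle markers and the cochlear markers on each array (bars start at 0; D257A replicates in red on the left, WT replicates in dark on the right). WT replicate 1 is the tallest bar for the 10 genes and the squamous keratins and the shortest WT bar for gland and mucosa, and the cochlear markers overlap between the genotypes.

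The genes whose log2 signal ran most like the mean of the 10 over the 10 arrays included genes of striated muscle. The highest was Myh2, and the keratins Krt77 and Krt5 were also among them. Among 11865 other tested genes, the highest Pearson r were those of Myh2 (0.987), the myosin of fast oxidative fibres, Hspb7 (0.984), Hrc (0.981), Krt77 (0.981) and Pde4dip (0.978). Actn2, Krt5, Actc1, Cidea and Ckmt2 followed, with r from 0.977 to 0.966. Hrc, Actn2, Actc1 and Ckmt2 act in striated muscle, and Cidea in lipid droplets of fat cells. With the group means removed, r was between 0.761 and 0.949 for these 10 genes, highest for Actn2. All of them were called lower in D257A cochleae. These calls are not read as support, since the genes were picked for likeness to a mean that differs between the genotypes. Myh2, Hspb7, Krt77 and Actc1 had D257A means below 577.4 and were in the tested set only through their WT signal. All 10 genes share the arrays and the group difference with the genes they were set against.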

How the data were processed

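Per the labels' protocols, biotin-labelled cRNA from 10 cochlear RNA samples was hybridised to Affymetrix mouse arrays. The authors deposited a linear signal intensity for each probe set and array, and GCOS 1.3 is named in the submitters' processing notes. How background was corrected and probes summarised is not given in the sources used here, and neither detection calls nor scan dates were used, so no batch could be tested. The authors' scaling was kept. Values of 64 control probe sets filled on 1 array only were left out.

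Probe sets were named from the platform annotation, updated by gene ID through RefSeq (GRCm38.p6): 34945 had 1 gene, 932 several and 9160 none here. Signals were transformed as log2(signal + 16). The 22518 probe sets with the higher mean of these log2 values (a fraction of 0.5, from a mean equal to a signal of 577.4 upwards) were tested two-sided by limma 3.58.1 (R 4.3.3; lmFit, then eBayes with an intensity trend) with genotype as the only term. Benjamini-Hochberg adjustment covered every tested probe set, and the threshold was 0.05. Adjusted p-values in the text come from this fit, or from the same fit on all 45037 probe sets where "no filter" is stated. Each gene's values are those of its probe set with the highest mean log2 signal. The named genes were the 10 genes, the called genes of 12 other lists with up to 4 further genes of each list by smallest p, the 10 genes most alike by r, and Polg. For glands, muscle, cochlea and basal adhesion, uncalled genes are given as counts. The 10 genes and all lists were chosen with earlier results of these data known. The fitting was tested on simulated data. The number of arrays limits the precision. Figures were drawn with matplotlib 3.10.9.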

Additional observations from a re-analysis of the deposited data

Results flagged for a closer look

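The 2 genotypes of each of the 10 genes gave 20 sets of 5 arrays. In 5 of these the highest or lowest array stood far from the others by Dixon's gap criterion on the linear signals. Chance meets it in about 1 of 20 independent, normally distributed sets. The sets here share arrays, so their count is not read as an excess. WT replicate 1 was the high array for Lor (7855.2), Dmkn (10738.2) and Pkp1 (3753.2). D257A replicate 5 was the high array for Sbsn (1889.7), still below the lowest WT value of 4481.4. WT replicate 3 was the low array for Sfn (77.1).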

How the results depend on the processing

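Of the 10 genes, 4 were called lower in the tested set, 3 to 4 when 1 array was left out and 3 to 6 over all alternatives, with no change of direction for any of the tested ones. Among 27 called genes named in the text, lists of other tissues included, 18 kept their call in every alternative. Of the other cornified envelope genes 3 were called, 5 with no filter, 5 with array weights, 1 with the mean over probe sets, 0 among the brightest 30% of probe sets (where 4 were tested) and 1 to 3 with 1 array left out. Of squamous keratins 6 were called, 3 of 3 tested among the brightest 30%, and 4 to 6 with 1 array left out. The 5 tested genes of the lists of other desmosomal genes (Pkp3, Jup, Dsg2, Pkp2 and Pkp4) had 0 calls in every setting. Array weights added calls, all lower, for Dsp (adjusted p = 0.0359), Perp (0.0317), Ly6d (0.0169), Asprv1 (0.0206), Klf5 (0.0347), Epcam (0.0458), Plk2 (0.0487) and Krt18 (0.0485).

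Over all probe sets 513 were called, 322 among the brightest 30%, 1217 with array weights, 188 with the replicate number as a block and 168 to 574 with 1 array left out. Of the calls 45.4% were higher in D257A, against 26.6% with arrays centred on the median, under which the median over tested probe sets was -0.101 (log2) in place of -0.000544; the share was 59.1% without D257A replicate 4 and 34% without WT replicate 1. Same-numbered arrays deviated together (r above 0.1) in 3 of 5 pairs, with r from -0.337 to 0.183. These 5 weak correlations cannot show whether the numbers pair the samples. With the block, Lor, Sbsn and Dmkn were called (adjusted p = 0.0173, 0.0042 and 0.00687) and Pkp1 was not (0.0838). The block also lost Lce1b (0.0512), Lce1a1 (0.0966), Krt6a (0.105) and Ltf (0.0675), and called Lce1h lower (0.0422).

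With 1 array left out, Lor minus Trp63 ran from -1.63 to -1.03, and Sfn minus Perp from -0.29 (without WT replicate 3) to 0.48. Uncalled signs that turned were those of Polg (0.0218 with quantile normalization, 0.10 with the mean over probe sets, and -0.1442 to 0.0691 with 1 array left out), Klf5 and Klf4 (0.20 and 0.061 with the mean over probe sets) and Dsg2 (-0.2267 to 0.0161 with 1 array left out). The cause was not tested for any of these. Leaving out both D257A replicate 2 and WT replicate 3, and each alternative for the fit with no filter, were added after seeing the data. Signals under 577.4 were not shown to be above background.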

Other observations

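Some genes of the outer epidermal layers and the basal layer were too dim for the tested set but separated the genotypes. They were chosen after their values were seen, and the adjusted p-values come from the limma fit with no filter. In that fit 2 of the 33 dimmer genes of the other cornified envelope list were called lower, and 1 of the 8 dimmer squamous keratins. Over all named genes, bright ones included, 1.05% were called lower, and 2.8% did not overlap with D257A lower. Positive log2 fold changes were found in 12 of the 33 and in 3 of the 8. Klk7, a protease that cuts desmosomes when outer skin cells are shed, measured 20.6, 92.5, 24.4, 21 and 30.4 in D257A replicates 1 to 5, against 4339.6, 1073.5, 662.6, 1056.8 and 1080.5 in WT replicates 1 to 5 (log2 fold change -4.74, adjusted p = 0.00104). The D257A signals of Klk7 were near the bottom of the scale on every array. Flg, encoding filaggrin, the keratin-bundling protein of the granular layer, measured 86.6 to 149.9 in D257A cochleae and 421.7 to 897.3 in WT cochleae (-2.22, adjusted p = 0.00478). Krt15, a basal keratin, measured 16.2 to 424.2 and 695.8 to 2082 (-4.30, adjusted p = 0.00594), with D257A replicate 4 the highest of its group. The desmosomal cadherin Dsc3 measured 52.5 to 270.2 and 491.8 to 1130.2 without a call (-1.68, adjusted p = 0.0671).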
